A study of Mus musculus with 6 samples.

Results

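The genes described here carry out and regulate glycolysis or belong to the cellular response to low oxygen. They were chosen as 38 listed mouse symbols, and a gene was taken as measured where the gene name of a non-control probe equalled its symbol. The arrays carried 36 of the 38, with 65 probes, among 27962 gene names and 41174 probes in all. Glycolysis was represented by 25 of 26 listed genes and the hypoxia response by 11 of 12. No probe carried the name Gapdh or Vhl. All 36 genes were well above background on all 6 arrays, so none entered the test through 1 group alone.

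RNA came from mouse embryonic stem (ES) cells grown in vitro, which are pluripotent, with an F1 background of 129 and C57BL/6. Both groups were transfected with siRNA for 48 h: 3 arrays followed a scrambled control siRNA, and 3 arrays followed siRNA against BRG1. BRG1 is the product of Smarca4, the ATPase that drives the SWI/SNF chromatin remodelling complexes. The labels name neither the cell line nor whether replicates were separate cultures, so the p-values reflect only how these arrays vary, and that spread may be technical. A knockdown is partial: Smarca4 fell by 0.60 ± 0.064 (SE) on the log2 scale, 1.52-fold (limma adjusted p = 0.00365).

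Glycolysis splits glucose into pyruvate and yields ATP without oxygen. Glucose enters through facilitative transporters, is phosphorylated and cleaved in the upper steps, and is oxidised to pyruvate in the lower steps, after which lactate dehydrogenase and monocarboxylate transporters dispose of the product as lactate. In the hypoxia response, prolyl hydroxylases mark HIF alpha subunits for destruction through the VHL ubiquitin ligase while oxygen is present. When oxygen falls, HIF alpha pairs with ARNT and activates genes that include many glycolytic enzymes, and pluripotent cells in culture are known for high glycolytic rates.

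Values are processed signals on the log2 scale after subtraction of the 75th percentile over the array's gene spots, so a value of 0 is the signal of that percentile and a difference of 1 is 2-fold. A gene was represented by its brightest probe and called changed at a Benjamini-Hochberg adjusted p under 0.05 over the 17759 genes tested with limma, two-sided. Between 60.9% and 75.3% of spots per array were well above background. Precision is limited by how few arrays there are. The arrays lay on 2 slides: slide 1 held the 3 control arrays and BRG1 siRNA replicate 1, and slide 2 held BRG1 siRNA replicates 2 and 3. Signals of the spike-in RNAs, added in fixed amounts, were lower on the BRG1 siRNA arrays, with log2 medians of 12.25 to 12.41 against 12.52 to 12.67. Scaling to them moved the median change of all genes from -0.037 to 0.17, so every direction below is relative to the 75th percentile. The samples are bulk RNA, in which fewer cells expressing a gene and less of its RNA per cell cannot be told apart.

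Among the 25 glycolysis genes, 7 fell and 1 rose with BRG1 siRNA, and among the 11 hypoxia genes 3 fell and 1 rose. The largest decreases were those of the lactate exporter Slc16a3 (-0.74), the lactate dehydrogenase subunit Ldhb (-0.63) and the platelet-type phosphofructokinase Pfkp (-0.55) in glycolysis, and of the HIF hydroxylase Egln3 (-0.55) and the growth factor Vegfa (-0.50) in the hypoxia response. Increases passed the test for the enolase Eno1 (0.34) and for Ndrg1 (0.60). The called share was 32% for glycolysis and 36.4% for hypoxia genes. Over all genes tested 23.3% were called, 13.4% lower and 9.87% higher. The median log2 change was -0.16 for glycolysis, -0.032 for hypoxia and -0.037 for all genes. In the glycolysis group 17 of 25 changes were below 0, and over all genes tested 57.1% were. Control and BRG1 siRNA arrays did not overlap for 11 lower and 1 higher glycolysis genes and for 3 lower and 2 higher hypoxia genes, where 25.1% and 18.9% of all genes were lower and higher without overlap.

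These counts depended on the scaling and on the slide. With spike-in scaling the split of 1 higher and 7 lower glycolysis genes became 3 higher and 1 lower (median 0.048), and 1 higher and 3 lower hypoxia genes became 2 higher and 0 lower (median 0.18), while 20.4% of all genes were called higher and 3.45% lower. Calls kept there were Eno1, Slc16a3 and Ndrg1, and Pfkfb4, Slc16a1 and Hif1a were called higher in addition. Slide 2 holds no control array, so with slide as a block each change is that of BRG1 siRNA replicate 1 alone against the 3 controls, and slide 2 adds only to the estimate of spread. In that fit 3 glycolysis genes and 2 hypoxia genes passed, Pfkp, Ldhb, Slc16a3, Vegfa and Ndrg1, against 7.84% of all genes. On slide 1 alone, where the same array faces the same controls without slide 2, 0 of the 12 calls passed (adjusted p from 0.0529 for Ndrg1 to 0.153 for Ddit4). With median scaling 5 calls remained, those of Pfkp, Eno3, Ldhb, Slc16a3 and Ndrg1, and with no filter on dim probes 6 remained, those of Pfkp, Pgk1, Ldhb, Slc16a3, Vegfa and Ndrg1. Calls kept whichever single array was left out were Pfkp, Pgk1, Ldhb, Slc16a3, Vegfa and Ndrg1.

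**Figure D1:**
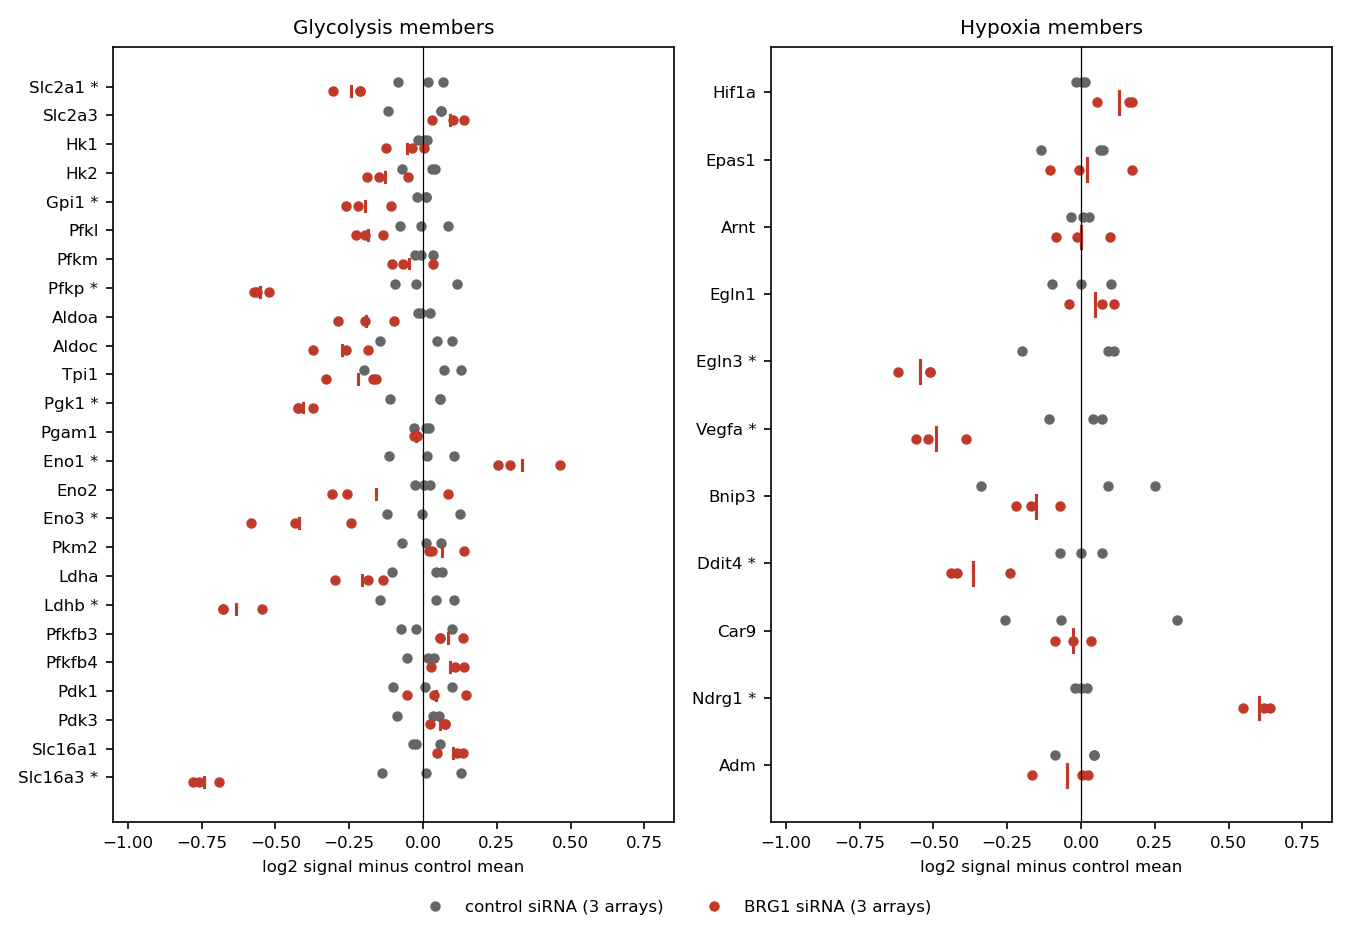
Log2 signal of each gene on each array minus its mean over the 3 control arrays (x axis) for the 25 glycolysis genes (left) and the 11 hypoxia genes (right). Grey points are control siRNA arrays, red points BRG1 siRNA arrays, the red tick is their mean, and an asterisk marks a gene past the test; the BRG1 siRNA points of Slc16a3, Ldhb, Pfkp, Egln3 and Vegfa lie clear to the left of the controls and those of Ndrg1 and Eno1 to the right.

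The 250 bases before the transcription start were compared for the core of the HIF response element. The 12 hypoxia genes were listed for a response that acts through that motif, whereas the 26 glycolysis genes were listed by pathway. Motif shares were not computed for these groups apart. The letters searched were ACGTG and GCGTG on both strands. A match to ACGTG can lie inside the E-box CACGTG, which other factors bind and which holds ACGTG on both strands. RefSeq promoter sequences of GRCm38.p6 were found for 35 of the 38 genes, and the 3 others, Slc2a3, Epas1 and Ndrg1, are named only. At least 1 start site held the motif in 31 of 35 genes (88.6%), compared with 41.5% of 27025 genes with a sequence, and the E-box was held by 17.1% and 6.86%. The 27025 genes were not limited to genes tested or above background here, whereas every listed gene that was measured was above background. The listed genes were also richer in G and C, with a median of 60.8% against 52.4%, and genes with several annotated starts had several chances to match. The motif was held by 9 of 10 genes that fell and 20 of 22 that did not pass the test, and the E-box by 0 of 10 and 6 of 22. Gpi1 was the gene that fell without a match. Vegfa had its matches before 1 annotated start (chr17:46025164-46025413) and 0 before the other (chr17:46032378-46032627). Vegfa lies on the minus strand, so the start with matches is downstream of the other. Its matches thus lie inside the gene as read from the other start, and Vegfa counts among the 9 only through them. The sequences below, 5′ to 3′ with each match in capitals, show 4 genes that fell and, last, Bnip3, which did not pass the test and has 5 matches, among them an E-box. They lie at chr11:120948817-120949066 (+), chr12:54203875-54204124 (-), chrX:106186850-106187099 (+), chr10:59951771-59952020 (-) and chr7:138909507-138909756 (-).
Slc16a3: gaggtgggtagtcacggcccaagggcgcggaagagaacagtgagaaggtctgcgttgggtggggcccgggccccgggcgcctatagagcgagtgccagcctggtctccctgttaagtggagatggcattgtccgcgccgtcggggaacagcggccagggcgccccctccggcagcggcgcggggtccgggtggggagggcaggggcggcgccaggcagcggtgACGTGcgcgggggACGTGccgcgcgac
Egln3: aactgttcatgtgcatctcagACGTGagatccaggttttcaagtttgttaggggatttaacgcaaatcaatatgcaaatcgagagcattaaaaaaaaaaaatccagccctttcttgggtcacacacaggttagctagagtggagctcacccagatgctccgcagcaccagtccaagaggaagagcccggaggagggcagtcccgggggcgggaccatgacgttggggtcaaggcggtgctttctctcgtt
Pgk1: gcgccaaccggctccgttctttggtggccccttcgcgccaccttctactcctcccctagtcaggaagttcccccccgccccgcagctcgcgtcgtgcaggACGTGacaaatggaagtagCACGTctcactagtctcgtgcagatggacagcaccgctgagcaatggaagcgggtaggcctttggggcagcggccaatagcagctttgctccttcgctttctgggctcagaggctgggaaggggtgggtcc
Ddit4: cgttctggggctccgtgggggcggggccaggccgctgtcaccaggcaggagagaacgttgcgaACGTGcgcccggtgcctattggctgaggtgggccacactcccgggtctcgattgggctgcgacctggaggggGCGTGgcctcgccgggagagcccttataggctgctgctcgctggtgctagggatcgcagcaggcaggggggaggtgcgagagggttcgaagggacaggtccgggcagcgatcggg
Bnip3: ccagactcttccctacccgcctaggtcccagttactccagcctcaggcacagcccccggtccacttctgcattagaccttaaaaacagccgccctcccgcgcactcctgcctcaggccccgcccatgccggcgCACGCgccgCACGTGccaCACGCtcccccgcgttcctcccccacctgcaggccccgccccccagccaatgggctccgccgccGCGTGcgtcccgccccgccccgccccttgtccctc
Both Slc16a3 matches lay within 27 bases of the start site, whereas the single Egln3 match began 229 bases before it and the 2 of Pgk1 began 150 and 131 bases before it. A match is a run of letters and no measure of binding.

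Slc2a1 encodes GLUT1, the transporter responsible for basal glucose uptake, and Slc2a3 encodes the high-affinity transporter GLUT3. Slc2a1 signal was 5.98, 5.88 and 6.03 on the control arrays and 5.66, 5.75 and 5.75 on the BRG1 siRNA arrays (chromosome 4, 118513698 to 118513757, plus strand, mm7). All 3 BRG1 siRNA arrays were below all controls. The decrease of 0.24 ± 0.056, or 1.18-fold, passed the test (limma adjusted p = 0.0307; log2 change -0.24). It did not hold with slide as a block (-0.30, adjusted p = 0.0789), with spike-in scaling (-0.034) and when control replicate 1, control replicate 3, BRG1 siRNA replicate 1 or BRG1 siRNA replicate 2 was left out (-0.21 to -0.26, adjusted p from 0.0782 to 0.114). Slc2a3 changed by 0.092 ± 0.066 with overlapping groups and did not pass (adjusted p = 0.365).

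Of the 17 glycolytic enzymes measured, 5 fell and 1 rose, or 35.3% called against 23.3% of all genes tested. Changes were below 0 for 15 of them (88.2%, against 57.1% of all genes tested). Their median of -0.19 became 0.018 with spike-in scaling, where that of all genes went from -0.037 to 0.17. Gpi1, glucose-6-phosphate isomerase, had signals of 6.15, 6.15 and 6.12 in controls and 5.88, 5.92 and 6.03 with BRG1 siRNA (chromosome 7, 31089664 to 31089723, minus strand, mm7). The groups did not overlap, and the change of -0.19 ± 0.051 passed narrowly (limma adjusted p = 0.0471). It did not pass with slide as a block (-0.25, adjusted p = 0.084) or without any 1 array other than BRG1 siRNA replicate 3 (-0.16 to -0.20, adjusted p from 0.119 to 0.136), and its sign turned with spike-in scaling (0.018). The hexokinases Hk1 and Hk2, which trap glucose in the cell as glucose-6-phosphate, changed by -0.054 and -0.13 with overlapping groups and did not pass.

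Phosphofructokinase commits the sugar to glycolysis and is built from liver (Pfkl), muscle (Pfkm) and platelet (Pfkp) subunits. Pfkp signal was 1.73, 1.80 and 1.94 on control arrays and 1.26, 1.25 and 1.30 on BRG1 siRNA arrays, and its probe lies on chromosome 13 at 6475782 to 6477936 (minus strand, mm7). The BRG1 siRNA arrays lay close together and well under the lowest control. The change was -0.55 ± 0.063, a 1.47-fold decrease (limma adjusted p = 0.00424), and it did not pass with spike-in scaling (-0.35, adjusted p = 0.0525). BRG1 siRNA replicate 1 alone gave -0.56 (adjusted p = 0.0443 with slide as a block, 0.0755 on slide 1 alone). Pfkl changed by -0.18 ± 0.056 (adjusted p = 0.0671; groups apart) and Pfkm by -0.048 ± 0.051 (adjusted p = 0.535; groups overlapping).

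Aldolase and triose phosphate isomerase, which cleave the hexose and interconvert the resulting trioses, did not pass the test. Aldoa changed by -0.19 (adjusted p = 0.0664) and Aldoc by -0.28 (adjusted p = 0.0684), both without overlap between groups, and Tpi1 changed by -0.22 with overlap (adjusted p = 0.177). Pgk1, phosphoglycerate kinase, makes the first ATP of the lower pathway. Its signals were 5.57, 5.74 and 5.74 in controls and 5.26, 5.31 and 5.26 with BRG1 siRNA (chromosome X, 101530787 to 101530846, plus strand, mm7). No array overlapped, and the fall of 1.32-fold (-0.40 ± 0.059; limma adjusted p = 0.00839) was lost with slide as a block (-0.42, adjusted p = 0.0617) and with spike-in scaling (-0.19, adjusted p = 0.231). Pgam1, the phosphoglycerate mutase of the following step, changed by -0.023 ± 0.036, with BRG1 siRNA values of 6.70 to 6.71 inside the control range of 6.70 to 6.75.

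The enolases, which form phosphoenolpyruvate, split, with Eno1 higher and Eno3 lower. Eno1, the widely expressed form, had signals of 3.28, 3.50 and 3.41 in controls and 3.86, 3.65 and 3.69 with BRG1 siRNA (chromosome 4, 149233567 to 149233792, plus strand, mm7). The groups did not overlap and BRG1 siRNA replicate 1 was highest. The rise of 0.34 ± 0.084, 1.26-fold, passed the test (limma adjusted p = 0.0386) and also with spike-in scaling (0.55, adjusted p = 0.0261), but not with slide as a block (0.46, adjusted p = 0.061) nor without any 1 of the 6 arrays (0.27 to 0.39, adjusted p from 0.0539 to 0.119). Eno1 has near-identical copies in the mouse genome, and which of them its single probe reads was not checked. Eno3, the muscle form, had signals of 2.34, 2.09 and 2.21 in controls and 1.63, 1.78 and 1.97 with BRG1 siRNA (chromosome 11, 70744001 to 70744060, plus strand, mm7). Its arrays did not overlap, and the fall of 1.34-fold (-0.42 ± 0.11; limma adjusted p = 0.0432) was lost with slide as a block (-0.58, adjusted p = 0.0658), with spike-in scaling (-0.21, adjusted p = 0.0956) and without any 1 array other than BRG1 siRNA replicate 3 (-0.34 to -0.48, adjusted p from 0.0627 to 0.129). Eno2, the neuronal form, changed by -0.16 ± 0.11 with overlap (adjusted p = 0.336). Pkm2, the probe name for pyruvate kinase M, changed by 0.066 ± 0.056 (adjusted p = 0.442).

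Lactate dehydrogenase interconverts pyruvate and lactate as tetramers of A and B subunits. Ldhb signal was 5.13, 5.32 and 5.38 on control arrays and 4.60, 4.73 and 4.60 on BRG1 siRNA arrays (chromosome 6, 142578009 to 142578068, minus strand, mm7). Every BRG1 siRNA array lay below every control, and the change was -0.63 ± 0.081, a 1.55-fold decrease (limma adjusted p = 0.00589). The call missed the threshold with spike-in scaling (-0.42, adjusted p = 0.052). BRG1 siRNA replicate 1 on its own gave -0.68 (adjusted p = 0.0475 with slide as a block, 0.0736 on slide 1 alone). Ldha changed by -0.21 ± 0.069, with controls at 7.26 to 7.43 and BRG1 siRNA arrays at 7.07 to 7.23, and did not pass (adjusted p = 0.0847).

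Slc16a3 encodes MCT4, which exports lactate from glycolytic cells, and Slc16a1 encodes the more widely expressed MCT1. Slc16a3 had signals of 3.71, 3.86 and 3.98 in controls and 3.09, 3.07 and 3.16 with BRG1 siRNA (chromosome 11, 121067754 to 121067813, plus strand, mm7). The gap between the groups was wider than the range within either of them. Its decrease of 1.67-fold (-0.74 ± 0.077; limma adjusted p = 0.0034) was the largest among the 36 genes and passed with spike-in scaling (-0.53, adjusted p = 0.0182). For BRG1 siRNA replicate 1 alone the change was -0.76 (adjusted p = 0.039 with slide as a block, 0.0678 on slide 1 alone). Slc16a1 changed by 0.10 ± 0.047 with overlapping groups (adjusted p = 0.183) and was called higher with spike-in scaling (0.31, adjusted p = 0.0476).

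The kinases that regulate the pathway were not called. Pfkfb3 and Pfkfb4 set the level of fructose-2,6-bisphosphate, the activator of phosphofructokinase, and Pdk1 and Pdk3 shut pyruvate dehydrogenase off. Their changes ran from 0.041 to 0.089, all with overlapping groups. Pfkfb4 was called higher with spike-in scaling (0.30, adjusted p = 0.0456).

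**Figure D2:**
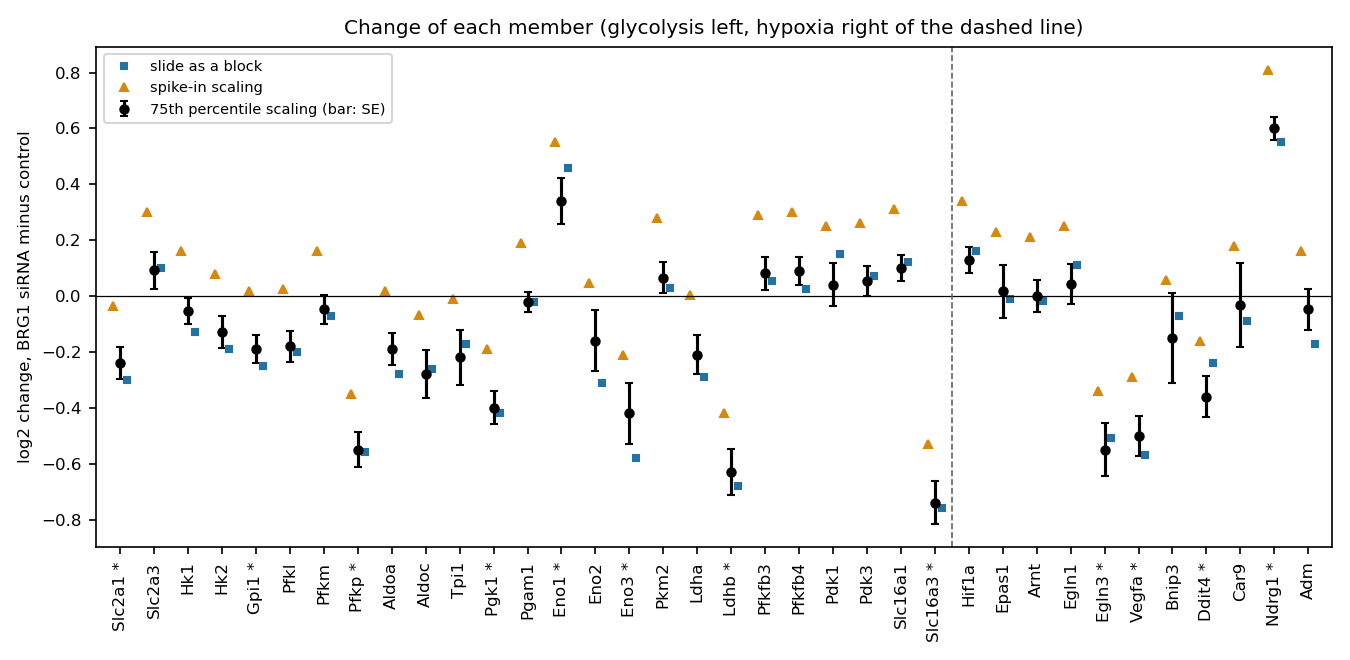
Log2 change of each of the 36 genes, BRG1 siRNA minus control (y axis), in pathway order. Black points with bars are the change and SE with 75th percentile scaling, blue squares the change with slide as a block, orange triangles the change with spike-in scaling, and asterisks mark genes past the test; spike-in scaling lies above the black point for every gene, while Slc16a3, Ldhb and Pfkp stay below 0 under all 3.

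In the hypoxia group the HIF subunits were not called. Hif1a, the oxygen-regulated alpha subunit, had signals of 1.23, 1.20 and 1.22 in controls and 1.38, 1.27 and 1.39 with BRG1 siRNA, a change of 0.13 ± 0.047 without overlap (adjusted p = 0.109). It was called higher with spike-in scaling (0.34, adjusted p = 0.0305). Epas1, which encodes HIF-2 alpha, changed by 0.017 ± 0.095 and Arnt, the constitutive partner, by -0.00024 ± 0.058. HIF alpha is controlled largely at the level of protein stability, which arrays do not measure.

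Of the HIF hydroxylases, Egln3 fell and Egln1 was not called. Egln3 encodes PHD3, itself a HIF target, and had signals of -1.60, -1.29 and -1.31 in controls and -1.91, -1.91 and -2.02 with BRG1 siRNA (chromosome 12, 52198570 to 52198629, minus strand, mm7). All BRG1 siRNA arrays were below the controls, of which replicate 1 was lowest. The change was -0.55 ± 0.096, a 1.46-fold decrease (limma adjusted p = 0.0143). It was lost with slide as a block (-0.51, adjusted p = 0.104), with spike-in scaling (-0.34, adjusted p = 0.127) and without control replicate 3 (-0.50, adjusted p = 0.0625). Egln1, which encodes PHD2, the main oxygen sensor of this family, changed by 0.042 ± 0.071 with overlap. A probe under the older name Vhlh, whose transcript RefSeq assigns to Vhl, lies outside the naming rule and changed by -0.073 ± 0.044 (adjusted p = 0.285).

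Among the 6 other HIF targets 2 fell and 1 rose, or 50% of a very short list, against 23.3% of all genes tested. Vegfa, the vascular endothelial growth factor, had signals of -1.38, -1.20 and -1.23 in controls and -1.83, -1.79 and -1.66 with BRG1 siRNA (chromosome 17, 44147967 to 44148026, minus strand, mm7). The groups were apart, and the change of -0.50 ± 0.072, or 1.41-fold down (limma adjusted p = 0.00829), did not pass with spike-in scaling (-0.29, adjusted p = 0.075). Its change on BRG1 siRNA replicate 1 alone was -0.57 (adjusted p = 0.0465 with slide as a block, 0.0688 on slide 1 alone). Ddit4, also called REDD1, restrains mTORC1 under stress. Its signals were 4.49, 4.63 and 4.56 in controls and 4.32, 4.12 and 4.14 with BRG1 siRNA, without overlap (chromosome 10, 59467933 to 59467992, minus strand, mm7). Its fall of 1.29-fold (-0.36 ± 0.072; limma adjusted p = 0.0203) was smaller on slide 1 and lost with slide as a block (-0.24, adjusted p = 0.115), with spike-in scaling (-0.16, adjusted p = 0.366) and when control replicate 2, control replicate 3 or BRG1 siRNA replicate 2 was left out (-0.33 to -0.37, adjusted p from 0.0652 to 0.0799).

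Ndrg1, a stress-responsive gene linked to differentiation and induced by hypoxia in many cells, went the other way. Signals were 0.72, 0.74 and 0.76 in controls and 1.29, 1.38 and 1.36 with BRG1 siRNA (chromosome 15, 67013174 to 67013233, minus strand, mm7). The SD was 0.02 in controls and 0.046 with BRG1 siRNA (n = 3 each), and the groups were far apart. The rise of 1.52-fold (0.60 ± 0.042; limma adjusted p = 0.00155) passed with spike-in scaling (0.81, adjusted p = 0.00275). With BRG1 siRNA replicate 1 alone it was 0.55 (adjusted p = 0.0243 with slide as a block, 0.0529 on slide 1 alone). The mitophagy receptor Bnip3 (-0.15 ± 0.16), the carbonic anhydrase Car9 (-0.032 ± 0.15) and the peptide hormone Adm (-0.048 ± 0.072) had overlapping groups and did not pass. Bnip3 controls were widely spread, at 1.55, 1.98 and 2.14.

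Probes of the same gene did not always give the same result. The brightest Gpi1, Pgk1 and Vegfa probes were averages of 10 spots on each array, whereas the other probes of these genes had 1 spot. Of the 65 probes 60 were tested one by one, and 17 were called, 4 higher and 13 lower, against 19.6% of all probes. The second Pgk1 probe was also called lower (-0.36 ± 0.062; limma adjusted p over probes = 0.015). Of the 2 other Vegfa probes, the brighter had overlapping groups and did not pass (-0.30 ± 0.11; adjusted p over probes = 0.123), and the dimmer was called lower (-0.32 ± 0.072; adjusted p over probes = 0.0318). A second Ldha probe, at 6.51, 6.50 and 6.59 in controls and 6.17, 6.32 and 6.30 with BRG1 siRNA, was called lower (-0.27 ± 0.059; adjusted p over probes = 0.0303), whereas the brightest Ldha probe was not. The other Pfkp probes changed by -0.34 and -0.11 and were not called. The brightest Gpi1 probe, called in the gene test, was not called in the probe test (-0.19 ± 0.053; limma adjusted p over probes = 0.0556).

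Hk1 and Pdk1 showed the clearest disagreement. Both dimmer Hk1 probes near -1.85 in controls were called higher: one had signals of -1.85, -1.86 and -1.84 in controls and -1.65, -1.68 and -1.71 with BRG1 siRNA (0.17 ± 0.041; limma adjusted p over probes = 0.0389), and the other changed by 0.18 ± 0.046 (adjusted p over probes = 0.0454). The brightest Hk1 probe changed by -0.054. For Pdk1 the brightest probe changed by 0.041, while another at 1.53, 1.56 and 1.58 in controls and 1.29, 1.34 and 1.32 with BRG1 siRNA was called lower (-0.24 ± 0.04; adjusted p over probes = 0.0132). None of these Hk1, Pdk1 and further Ldha, Pgk1 and Vegfa probe calls held with slide as a block, and each was lost when certain single arrays were left out, 2 of the 6 for Pdk1, 4 for Pgk1 and 5 for the others. Spike-in scaling also ended the Ldha (-0.06), Pdk1 (-0.034), Pgk1 (-0.15) and Vegfa (-0.12) probe calls, and both normexp settings ended the Hk1 probe calls (0.08 to 0.14). A dim second Gpi1 probe changed by 0.70 ± 0.69, and its BRG1 siRNA replicate 1 value stood at -1.98 while the other arrays lay at -4.72 to -3.84; averaging both Gpi1 probes turned the sign of that gene (0.26). Which transcripts each probe reads was not checked, as no mm7 annotation was used here.

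**Figure D3:**
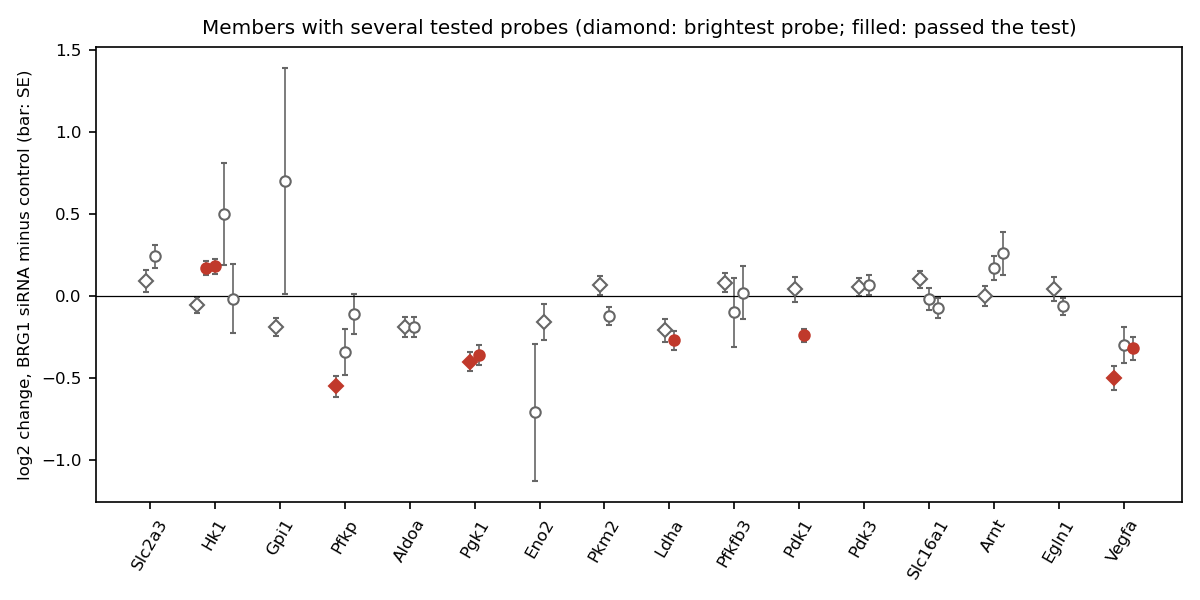
Log2 change with SE (y axis) for every tested probe of the 16 genes with more than 1 tested probe. Diamonds are the brightest probe of each gene and circles the others, filled red where the probe passed the test over all probes; Pgk1 and Vegfa probes lie together below 0, while Hk1 and Pdk1 have called and uncalled probes on opposite sides of 0.

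Alternative forms of a step were then compared within each array, by subtracting the log2 signal of one gene from that of the other, which cancels any scaling common to the array. With 13 pairs of 3 against 3 arrays, an exact two-sided permutation test cannot go below p = 0.1 (0.144 after adjustment over the 13 pairs), so none could pass, and only the change of a pair is meaningful, since probes differ in brightness. Overlap between groups was absent for 9 of the 13 pairs, but many single genes were also without overlap, no share over all gene pairs was computed, and several pairs share a called gene such as Pfkp or Eno1. For Slc16a1 minus Slc16a3 the difference was 0.022, -0.12 and -0.16 in controls and 0.79, 0.74 and 0.74 with BRG1 siRNA, a shift of 0.84. Eno1 shifted against Eno3 by 0.76 and against Eno2 by 0.50, and the order of these and the lactate transporter pair changed when single arrays were left out or probes averaged. Pfkm and Pfkl shifted against Pfkp by 0.51 and 0.37, Ldha against Ldhb by 0.43, and Slc2a1 against Slc2a3 by -0.33. Smaller shifts without overlap were those of Eno2 against Eno3 (0.26) and Pfkl against Pfkm (-0.14). On slide 1 alone these shifts were 0.88 for the lactate transporters, 1.05 for Eno1 and Eno3, 0.49 for Pfkm and Pfkp and 0.38 for the lactate dehydrogenases. The pairs Hk1 and Hk2, Aldoa and Aldoc, Pdk1 and Pdk3, and Pfkfb3 and Pfkfb4 overlapped.

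**Figure D4:**
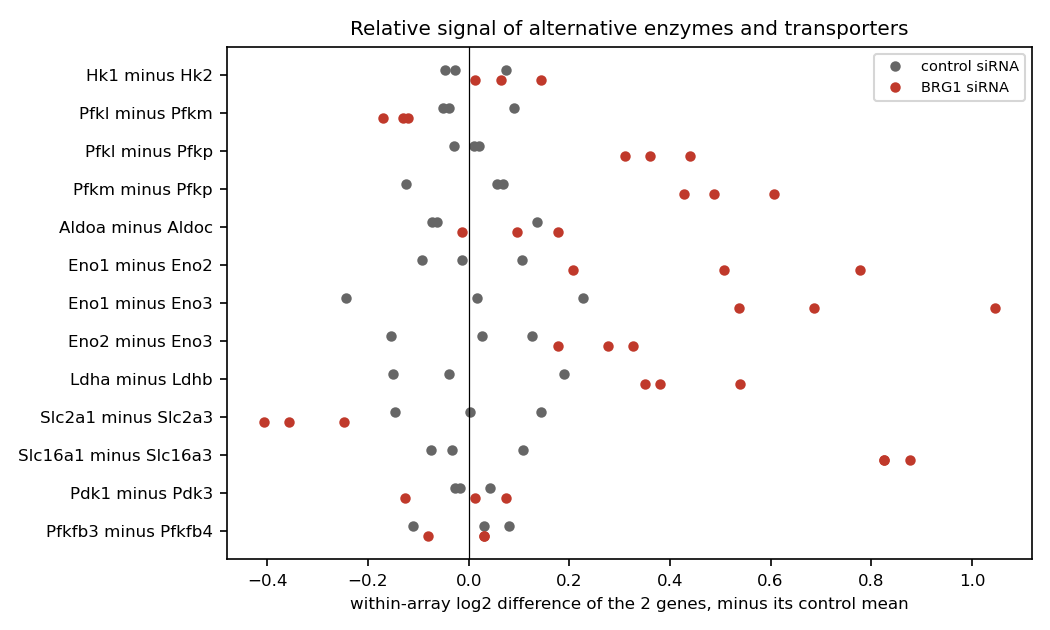
Within-array log2 difference between 2 genes of the same step, minus its mean over the 3 control arrays (x axis), for the 13 pairs. Grey points are control siRNA arrays and red points BRG1 siRNA arrays; the lactate transporter, phosphofructokinase, lactate dehydrogenase and Eno1 pairs have no overlap between the colours.

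Neighbouring pathways were read from lists of other genes, against the 23.3% of all genes called, 13.4% lower and 9.87% higher. The lists were chosen with earlier results of these data known, so their called shares are no independent comparison. Of 18 other glycolysis genes tested, 3 fell and 1 rose, 22.2% together and near the share of all genes (median -0.14). Ldhc, the testis form of lactate dehydrogenase, fell by 0.62 on the log2 scale (limma adjusted p = 0.00464), and changes were smaller for the insulin-responsive glucose transporter Slc2a4 (-0.33, adjusted p = 0.0376), the glycerol-3-phosphate dehydrogenase Gpd1 (0.23, adjusted p = 0.0251) and the pyruvate dehydrogenase kinase Pdk4 (-0.20, adjusted p = 0.0298). Of 36 other HIF regulators and targets, 10 fell and 7 rose, 47.2% together, with a median of -0.041. Among the larger changes were falls of Igfbp3, an IGF-binding protein (-0.72, adjusted p = 0.00338), and Stc2, a secreted stanniocalcin (-0.67, adjusted p = 0.00366), and a rise of Hmox1, heme oxygenase 1 (0.71, adjusted p = 0.00345). Egln2, the remaining HIF hydroxylase, was looked up after its values were seen and changed by -0.31 (adjusted p = 0.0185).

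Of 10 pentose phosphate genes, 3 fell and 0 rose (30% called, against 23.3% of all genes), and 9 of the 10 changes were below 0. They were Prps2, which makes phosphoribosyl pyrophosphate (-0.49, adjusted p = 0.00214), and the NADPH-forming dehydrogenases Pgd (-0.42, adjusted p = 0.00256) and H6pd (-0.30, adjusted p = 0.0209). Of 29 genes of pyruvate entry and the TCA cycle, 6 fell and 2 rose (27.6% called, near the share of all genes; median -0.076), led by the pyruvate dehydrogenase subunit Pdha1 (-0.31, adjusted p = 0.00661), Mdh1 (-0.27, adjusted p = 0.00694), Idh1 (-0.27, adjusted p = 0.0138) and, upward, the mitochondrial Idh2 (0.26, adjusted p = 0.00869). Of 16 gluconeogenesis and glycogen genes, 4 fell and 2 rose (37.5% called; median -0.017), among them mitochondrial Pck2 (-0.52, adjusted p = 0.0059), the liver glycogen phosphorylase Pygl (-0.51, adjusted p = 0.00521), G6pc3 (-0.49, adjusted p = 0.00225) and the glycogen synthase Gys1 (0.36, adjusted p = 0.0144), which was also on the HIF list. Of 5 genes that make serine from a glycolytic intermediate, Psat1 (-0.51, adjusted p = 0.00511) and Phgdh (-0.19, adjusted p = 0.0487) fell, or 40% of a very short list. With spike-in scaling the medians of all 6 lists were above 0, from 0.071 to 0.19. With slide as a block, which again compares BRG1 siRNA replicate 1 alone, Ldhc, Igfbp3, Hmox1, Stc2, Prps2, Pgd, Pck2, G6pc3 and Psat1 of these named genes passed, and with spike-in scaling Ldhc, Gpd1, Igfbp3, Hmox1, Stc2, Idh2 and Gys1 did. Median scaling ended the calls of Pgd, Pck2 and Psat1 (limma adjusted p from 0.0514 to 0.0643). It also ended those of Slc2a4, Gpd1, Pdk4, H6pd, Pdha1, Mdh1, Idh1, Idh2, Gys1 and Phgdh. Averaging all probes of a gene ended the calls of Slc2a4 (adjusted p = 0.0547), Gpd1 (-0.55, adjusted p = 0.267), Pygl (-0.13, adjusted p = 0.397) and Phgdh (adjusted p = 0.0935). Slc2a4, Gpd1, Pdk4, H6pd, Idh1, Gys1 and Phgdh lost their calls when single arrays were left out, 2 of the 6 for Idh1 and all 6 for Phgdh, with adjusted p of at most 0.163.

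Some cell type markers differed between the groups. Called shares were 42.9% of the ES cell and 50% of the fibroblast markers tested, both short lists, against 23.3% of all genes tested. All 7 ES markers on the array were above background on all 6 arrays, and their summed signal, in units of the 75th percentile, was 194 to 207 in controls and 191 to 204 with BRG1 siRNA. The brightest ES marker, Zfp42 (log2 signal 6.80 to 6.94), weighs most in that sum and did not pass the test (0.012). Of these markers Pou5f1 fell (-0.33, adjusted p = 0.0206), and Nanog (0.41, adjusted p = 0.0138) and Utf1 (0.43, adjusted p = 0.0298) rose. Of 12 fibroblast markers, 10 were above background throughout and 5 of these fell, led by S100a4 (-1.09), Thy1 (-0.79) and Col3a1 (-0.73), while 5 did not pass, among them Vim (0.12), Col1a2 (0.0061) and Postn (-0.04). The summed fibroblast signal was 65.5 to 68.5 in controls and 60.1 to 60.8 with BRG1 siRNA. Lum and Pdgfra were above background on only 2 arrays each. The brightest fibroblast markers, which weigh most in the sum, were Vim (log2 signal 4.54 to 4.76) and Acta2 (4.51 to 4.80). Whether the samples held fibroblast RNA, and whether it had a part in the decreases of the glycolysis and hypoxia genes, was not tested. Summed markers were 12 to 12.3 and 11.6 to 12.4 for neurons and neural progenitors, 0.549 to 0.751 and 0.549 to 0.606 for primitive endoderm, and 0.437 to 0.532 and 0.596 to 0.646 for blood, in controls and with BRG1 siRNA respectively. Of 5 primitive endoderm markers tested Dab2 fell (-0.57, limma adjusted p = 0.0381), and of 2 blood markers Cd68 rose (0.47, limma adjusted p = 0.00521). Of 4 neuronal and neural progenitor markers tested, 0 passed.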

How the data were processed

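Total RNA of 3 control siRNA and 3 BRG1 siRNA samples was labelled with Cy3 from 500 ng, per the labels' protocols. The deposited scanner files hold linear intensity, background-subtracted within each array by Agilent Feature Extraction 9.5, per the submitters' processing notes, with probe coordinates in mm7 per the file headers. The deposited value table equalled the processed signal (largest difference 0; medians 185.5, 181.3 and 173.3 for controls 1 to 3, and 167.2, 161.8 and 172.6 for BRG1 siRNA 1 to 3), so its scale is linear and uncentred.

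Groups came from the sample labels. Control spots (1639 of 45018) and spots marked as outliers (387 on any array) were left out. Spots of a probe were averaged. Each gene name took its brightest probe, tested if its signal was well above background throughout at least 1 group. Groups were compared with limma 3.58.1 (lmFit, eBayes) in R 4.3.3, and the method was tested on simulated data. Array values are given for genes with a called gene or probe, and up to 4 called genes with the largest change are named per neighbouring list, apart from a result not reported here. The genes and lists were chosen with earlier results of these data known. At most 1 spot had equal values on any 2 arrays. Alternatives were other background corrections (normexp, offset 50), scalings and filters, slide or replicate number as a block, slide 1 alone, other probe summaries and variance models, the value table, and leaving out each array.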

Additional observations from a re-analysis of the deposited data

How the results depend on the processing

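Of the alternatives, the value table, the filter on all 6 arrays, quantile normalization, both normexp settings and the trend and robust model kept the total counts of called genes and probes within 1.5 times. Spike-in scaling also kept these totals, at 4235 genes and 5622 probes, but moved their direction. It gave 3622 genes higher and 613 lower, where the main fit gave 1752 and 2387. By direction, the 1 higher and 7 lower glycolysis genes became 3 and 7 with normexp and quantile normalization and 1 and 11 with the trend and robust model. The 4139 genes called became 1734 with median scaling, 1740 with no filter, 1392 with slide as a block, 123 on slide 1 alone and 2596 with the mean of probes, and 1667 to 4416 with 1 array left out. The 5152 probes called became 2031, 1859, 1256 and 0 under the first 4 of these and 1641 to 5709 with 1 array left out. The 8 glycolysis calls became 4 with median scaling, 4 with spike-in scaling, 4 with no filter, 3 with slide as a block, 0 on slide 1 alone, 5 with the mean of probes and 4 to 9 with 1 array left out. The 4 hypoxia calls became 1, 2, 2, 2 and 0 under the first 5 of these and 2 to 4 with 1 array left out. Slide 1 alone has 1 BRG1 siRNA array, assumed to vary like the controls. For other changes the cause was not tested. The glycolysis median of -0.16 was -0.072 with normexp and quantile normalization, -0.096 with quantile normalization alone, 0.048 with spike-in scaling and -0.17 to -0.1 with 1 array left out. The hypoxia median of -0.032 was 0.021 with median scaling, 0.18 with spike-in scaling and -0.061 to 0.0087 with 1 array left out.

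The replicate numbers did not pair the arrays: deviations of same-numbered arrays correlated at -0.31, 0.105 and -0.0179, and most arrays matched another number better. With a replicate block 1938 genes, 2147 probes, 4 glycolysis genes and 2 hypoxia genes were called.

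Signs turned for Gpi1 (0.018 with spike-in scaling, 0.26 with the mean of probes), Gpd1 (-0.55, mean of probes), Pdk4 (0.0057, spike-in) and Phgdh (0.018, spike-in). Among gene pairs, the mean of probes gave -0.015 for Hk1 and Hk2, 0.15 for Pfkl and Pfkp, 0.29 for Pfkm and Pfkp, 0.77 for Eno1 and Eno2, -0.018 for Eno2 and Eno3, 0.74 for Slc16a1 and Slc16a3 and -0.16 for Pdk1 and Pdk3. Slide 1 alone gave -0.018 for Aldoa and Aldoc, 0.77 for Eno1 and Eno2, 1.05 for Eno1 and Eno3, 0.075 for Pdk1 and Pdk3 and 0.027 for Pfkfb3 and Pfkfb4. With normexp and quantile normalization Pfkl and Pfkm differed by -0.20, Pfkl and Pfkp by 0.31, Slc16a1 and Slc16a3 by 0.98, Pdk1 and Pdk3 by 0.068 and Pfkfb3 and Pfkfb4 by 0.086. With normexp and the 75th percentile these were 0.31 for Pfkl and Pfkp, 0.95 for the lactate transporters, 0.037 for Pdk1 and Pdk3 and 0.087 for Pfkfb3 and Pfkfb4, and quantile normalization gave 0.0094 for Pdk1 and Pdk3. With 1 array left out, the ranges were -0.057 to 0.043 for Pdk1 and Pdk3 and -0.06 to 0.031 for Pfkfb3 and Pfkfb4. The blocks were not run for gene pairs.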
